A study of Homo sapiens with 6 samples.

Results

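The 10 genes JUN, JUNB, JUND, FOS, FOSB, FOSL1, FOSL2, BATF, BATF3 and ATF3 encode AP-1 and BATF transcription factors. They were found by their symbols in a table of read counts for 36601 genes, each under a single symbol. RNA came from NK92 cells, a human natural killer (NK) cell lymphoma line that depends on IL-2. Stable lines expressed either a control shRNA (shCtrl, 3 libraries) or an shRNA against the long non-coding RNA miR155HG (shmiR155HG, 3 libraries). Cells of both groups were treated alike for 12 h, with IL-2 at 1000 U/mL plus IL-12 at 10 ng/mL, before poly(A) RNA was sequenced. There was no untreated group, so the comparison shows how the stable lines differed in stimulated cells and not the response to the cytokines. An effect of the shRNA and another difference between the lines cannot be told apart. For shmiR155HG replicates 2 and 3 the treatment field of the labels reads shmiR156HG and shmiR157HG, whereas their titles read shmiR155HG; the titles were followed. Nothing in the labels says that replicates were separate cultures, nor whether a line is a single clone, so p-values measure the spread between these libraries, which may be technical.

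AP-1 is a dimer of basic leucine zipper (bZIP) proteins that binds the sequence TGACTCA. Jun proteins pair with each other or with Fos proteins, whereas Fos proteins need a partner such as a Jun protein to bind DNA. BATF and BATF3 also pair with Jun proteins, lack the activating domains of Fos, and act with IRF4 or IRF8 at composite sites in lymphocytes, and ATF3 is a stress-induced factor that binds related sites. FOS, FOSB, JUN, JUNB and ATF3 are immediate early genes, transcribed within minutes of a stimulus through MAP kinases and serum response factor and then quickly shut off, while JUND is more steadily expressed. In NK and T cells AP-1 takes part in switching on cytokine and cytotoxicity genes after receptor or cytokine signals.

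Short sequences show where these genes and the targeted locus carry AP-1-type letters near their start sites. They come from the promoter windows of RefSeq (GRCh38.p14, 250 bases before to 50 after the start), in which 8 of the 10 genes and MIR155HG had an entry and FOSL1 and BATF3 did not. Both strands were searched for TGACTCA (the AP-1 site, in 4.95% of 35116 promoters of this length), TGACGTCA (the cyclic AMP response element, 1.85%), TGACATCA (the Jun promoter element, 2.61%), the CArG box of serum response factor (1.29%) and TTCNNNGAA (the STAT element GAS, 7.66%). The motifs overlap one another nowhere in the matches found. Capitals mark the match, and each line gives the gene's own strand.
JUND, chr19:18281804-18281833, minus strand, 200 to 193 bases before the start: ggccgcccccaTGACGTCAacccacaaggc
JUN, chr1:58784096-58784125, minus strand, 67 to 60 bases before the start: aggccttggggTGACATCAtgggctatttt
ATF3, chr1:212565273-212565302, plus strand, 123 to 116 bases before the start: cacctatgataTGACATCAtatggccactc
FOSL2, chr2:28392851-28392879, plus strand, 5 to 11 bases after the start: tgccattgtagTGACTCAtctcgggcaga
MIR155HG, chr21:25562074-25562102, plus strand, 60 to 54 bases before the start: ctggtcggttaTGAGTCAcaagtgagtta
The match in MIR155HG is the AP-1 site read on the opposite strand, and this promoter also held a GAS element 125 to 117 bases before the start. The windows of JUNB, FOS, FOSB, BATF and the second ATF3 promoter held none of these letters, and no CArG box was found in any of the windows of these genes. Starts here are those of RefSeq. The GENCODE bounds given below for MIR155HG and FOSL2 begin farther upstream, so that both matches lie inside those bounds. These are matches of letters within the windows. Sites farther from the start were not searched, and binding was not measured.

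MIR155HG is also the host gene of the microRNA miR-155, which lies inside it at chr21:25573983-25574006. The mature miRNA, from RefSeq, is shown because its seed (bases 2 to 8, in capitals) was searched for in the members' 3′UTRs.
miR-155-5p: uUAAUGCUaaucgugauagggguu
The complementary site AGCATTA stood in the 3′UTR of the canonical transcript of 1278 of 10763 tested genes with such a region (11.9%). It was present once each in FOS, FOSL2 and ATF3 and in none of the other 7 members. Capitals mark the site in these windows of the hg38 plus strand.
FOS, chr14:75281735-75281756, bases 325 to 331 of the 3′UTR: cttagtcttctcatAGCATTAa
FOSL2, chr2:28416411-28416432, bases 3977 to 3983 of the 3′UTR: gaatagaaactgatAGCATTAa
ATF3, chr1:212620490-212620511, bases 949 to 955 of the 3′UTR: ggtacccaggctttAGCATTAt
Mature miRNA was not measured in these libraries, since poly(A) selection does not capture it.

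Counts summed to between 33454786 and 39157264 per library. MIR155HG itself, the target of the shRNA (chr21:25561810-25575168, plus strand, 4 exons), was counted 73, 67 and 62 times in shCtrl replicates 1, 2 and 3 and 28, 19 and 10 times in shmiR155HG replicates 1, 2 and 3. Its level fell from 1.77 ± 0.154 to 0.509 ± 0.215 CPM (counts scaled to the size of the library, mean ± SD, n = 3), a log2 fold change of -1.78 with an SE of 0.43 (edgeR adjusted p = 0.0045). Its groups did not overlap, and the direction was that of the labels. MIR155HG passed the filter only through its shCtrl libraries, the group in which it is high. With no filter its log2 fold change was -1.79 (edgeR adjusted p = 0.00216). Of 14 NK cell marker genes 13 passed the filter, with 1 higher and 2 lower. All 14 together summed to 3152 to 3243 CPM in shCtrl and 3385 to 3473 CPM in shmiR155HG libraries. The higher one was IL2RB, from a mean of 1004 to 1268 CPM. The lower ones were PRF1, from 327 to 285 CPM, and NCR3, from 160 to 135 CPM. Of 8 T cell markers 3 passed (TRAC, TRBC1 and TRBC2, 1 of them higher), the list summed to 373 to 396 CPM against 426 to 459 CPM, and CD8B was at 0 in every library. Of 5 B cell markers only PAX5 passed, and higher in shmiR155HG cells; the list summed to 229 to 264 CPM in shCtrl and 340 to 344 CPM in shmiR155HG libraries. Of 6 myeloid markers 2 passed, 1 of them lower, with sums of 12.3 to 21.3 CPM and 10.8 to 14.1 CPM. Whether these shifts have a part in the results for AP-1 genes was not tested, and in bulk RNA fewer cells of a kind and less RNA per cell cannot be told apart.

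The comparison of shmiR155HG with shCtrl asked which AP-1 genes differed in their mRNA level between the lines. A gene was tested if at least 2 libraries exceeded 1 CPM, which 8 of the 10 members did and FOSL1 and BATF3 did not. JUND, FOSL2, FOS and FOSB rose in shmiR155HG cells (edgeR's quasi-likelihood test, adjusted p under 0.05 over all 12263 genes), and no member fell. Thus 4 of 8 tested members were called, against 15.3% of all genes tested, and 4 were called higher, against 7.26% of all genes called higher and 8.02% called lower. At an unadjusted p under 0.05 the count of lower members was also 0, in edgeR, DESeq2 and limma-voom. The median log2 fold change of the 8 members was 0.20, and that of all genes tested was 0.00097. In 5 of the 8 members (JUND, FOSL2, FOS, FOSB and BATF) the libraries of the groups did not overlap, which was so for 30.8% of all genes tested.

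**Figure D1:**
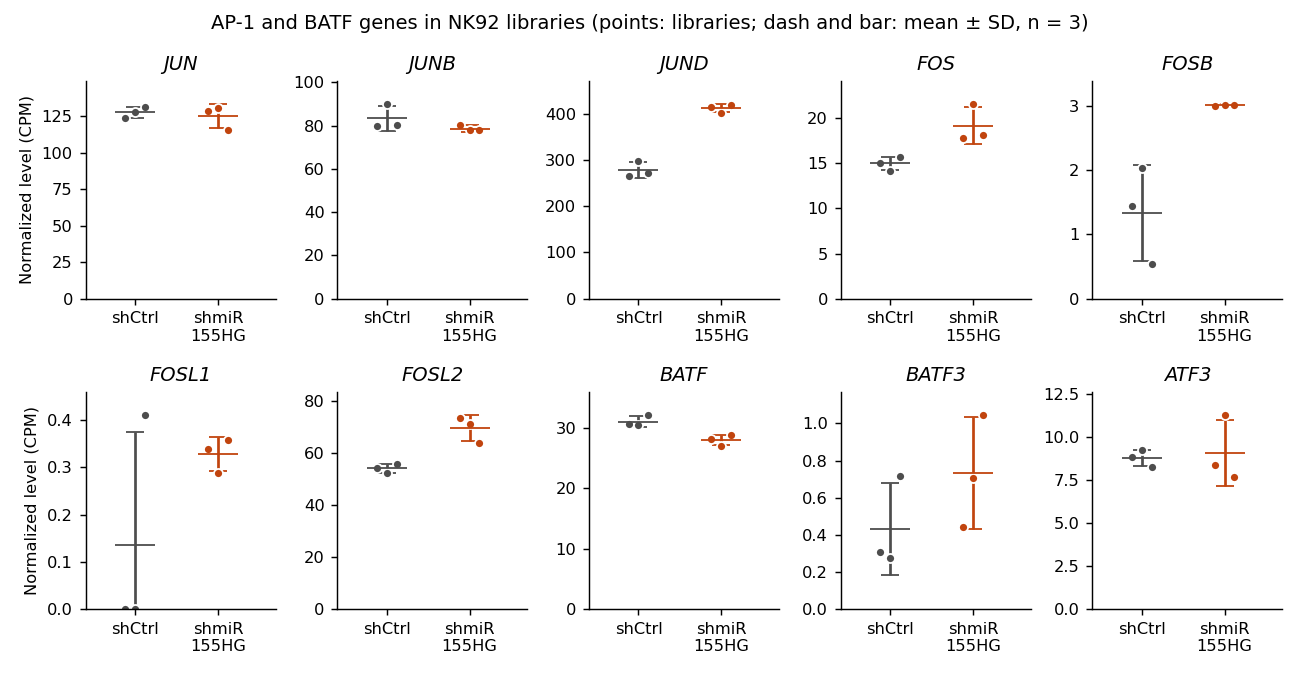
Normalized level (CPM, linear axes from 0) of the 10 members in each library, with shCtrl in grey and shmiR155HG in orange; points are libraries, and the dash and bar are the mean ± SD (n = 3). JUND, FOS, FOSB and FOSL2 sit higher in all 3 shmiR155HG libraries, BATF sits slightly lower, and JUN, JUNB, FOSL1, BATF3 and ATF3 overlap between the groups.

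Among the Jun genes, JUND rose by the largest margin over its error, while JUN and JUNB did not pass the test. JUND, the Jun protein that is steadily present in resting cells, is a single-exon gene at chr19:18279694-18281622 (minus strand). It was counted 10375, 10868 and 10574 times in shCtrl replicates 1, 2 and 3, or 266, 298 and 271 CPM. In shmiR155HG replicates 1, 2 and 3 it was counted 15906, 15328 and 14040 times, or 414, 402 and 419 CPM. Every shmiR155HG library thus stood more than 100 CPM above every shCtrl library, and the spread within each group was far smaller than this gap. The mean went from 278 ± 16.8 to 412 ± 8.74 CPM, a 1.48-fold rise (95% CI 1.40 to 1.56; log2 fold change 0.57, SE 0.039, adjusted p = 2.56e-11).

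JUN, the founding member of AP-1 and a target of the kinase JNK (single exon, chr1:58776845-58784048, minus strand), had 4808, 4681 and 5112 counts in shCtrl and 4949, 4975 and 3879 counts in shmiR155HG libraries. Scaled for depth these were 123, 128 and 131 CPM and 129, 131 and 116 CPM. The groups overlapped, with shmiR155HG replicate 3 the lowest of the 6. The log2 fold change of -0.03 had an SE of 0.049 (adjusted p = 0.776), with a 95% interval of the fold from 0.914 to 1.05.

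JUNB, a weaker activator than JUN that can dampen it (single exon, chr19:12791486-12793315, plus strand), had 3110, 3283 and 3135 counts in shCtrl and 3087, 2967 and 2606 in shmiR155HG libraries, or 79.8, 89.9 and 80.3 CPM against 80.3, 77.8 and 77.8 CPM. The groups met at 80.3 CPM, with shCtrl replicate 2 above the other 5 libraries. The log2 fold change of -0.08 had an SE of 0.059 (adjusted p = 0.388; 95% interval of the fold 0.869 to 1.03), and was -0.0248 without shCtrl replicate 2. HOOK2 overlaps JUNB on the opposite strand, with 389 to 578 counts per library; its own log2 fold change was -0.24 with an SE of 0.13 (adjusted p = 0.213). How strand was used in counting is not given in the sources used here.

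Levels of different genes can be compared only per transcript length, so CPM was divided by the length of the canonical transcript (GENCODE release 44). Per kb, JUND was the most abundant of all 10 members in shCtrl, at 144 ± 8.73 CPM per kb, and ranked 414 among 12216 tested genes with a length. JUNB followed at 45.5 ± 3.09 CPM per kb and JUN at 39.2 ± 1.18 CPM per kb. The summed Jun level went from 229 ± 12.2 to 295 ± 3.50 CPM per kb, and the libraries of the groups did not overlap. JUND made up 62.5% to 63.6% of this sum in shCtrl and 71.6% to 73.6% in shmiR155HG libraries. The share of JUN was 17.1% ± 0.856 and 13.0% ± 0.890, and that of JUNB was 19.9% ± 0.345 and 14.6% ± 0.171. Within a library, JUND counts over JUN counts went from 2.18 ± 0.128 to 3.30 ± 0.281, and JUND over JUNB from 3.34 ± 0.0314 to 5.24 ± 0.132. Ratios do not depend on the scaling between libraries, and both were higher in 3 of 3 shmiR155HG libraries (two-sided exact permutation test, p = 0.1, the smallest that 3 against 3 libraries allow; adjusted p = 0.2 over 6 ratios). JUNB over JUN was 0.654 ± 0.0445 and 0.631 ± 0.0382, with overlapping groups (exact p = 0.6).

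All 4 Fos genes had a higher mean in shmiR155HG libraries; FOSL2, FOS and FOSB rose by the test, and FOSL1 was too low to be tested. FOSL2, whose protein Fra-2 lacks the strong activating domain of FOS (chr2:28392448-28417317, plus strand, 4 exons), was the most counted of them. Its counts were 2124, 1912 and 2180 in shCtrl and 2827, 2721 and 2142 in shmiR155HG libraries, or 54.5, 52.3 and 55.9 CPM against 73.6, 71.4 and 64.0 CPM. No shmiR155HG library came as low as the highest shCtrl library, although replicate 3 of shmiR155HG stood well below the other 2. The rise was 1.28-fold (95% CI 1.17 to 1.41; log2 fold change 0.36, SE 0.066, adjusted p = 0.000268). Overlapping non-coding genes had at most 4 counts in any library.

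FOS, the inducible partner of Jun proteins (chr14:75278826-75282230, plus strand, 4 exons), had 585, 518 and 613 counts in shCtrl and 684, 820 and 608 counts in shmiR155HG libraries. These were 15.0, 14.2 and 15.7 CPM and 17.8, 21.5 and 18.2 CPM. The groups were separate, with shmiR155HG replicate 2 the highest library, and the gap between the nearest libraries was small against the range within shmiR155HG. FOS rose 1.28-fold (95% CI 1.09 to 1.51; log2 fold change 0.36, SE 0.12, adjusted p = 0.0345). Its log2 fold change was 0.26 without shmiR155HG replicate 2 (adjusted p = 0.203), and the adjusted p was also 0.0751 without shCtrl replicate 1, 0.125 without shCtrl replicate 2 and 0.0506 without shmiR155HG replicate 3.

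FOSB, a close relative of FOS (chr19:45467995-45475179, plus strand, 4 exons), showed the largest fold change of the members at a low level. It was counted 56, 74 and 21 times in shCtrl and 115, 115 and 101 times in shmiR155HG libraries, or 1.44, 2.03 and 0.538 CPM against 2.99, 3.02 and 3.02 CPM. The shmiR155HG libraries were nearly equal, while the shCtrl libraries spread widely, with replicate 3 the lowest. The rise was 2.26-fold (95% CI 1.34 to 3.81; log2 fold change 1.18, SE 0.37, adjusted p = 0.0288). Without shCtrl replicate 3 the log2 fold change was 0.80 (adjusted p = 0.125), and leaving out shCtrl replicate 1 or any of the shmiR155HG libraries gave an adjusted p between 0.0560 and 0.0944. ERCC1 overlaps FOSB on the opposite strand with 1737 to 1980 counts per library, many more than FOSB, and had a log2 fold change of 0.00081 with an SE of 0.066 (adjusted p = 0.996).

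FOSL1, which encodes Fra-1 (chr11:65892049-65900573, minus strand), had 0, 0 and 16 counts in shCtrl and 13, 11 and 12 counts in shmiR155HG libraries. A count of 0 allows a level of up to 0.0770 CPM in shCtrl replicate 1 and 0.0821 CPM in replicate 2 (3 counts, counting error only). All 3 shmiR155HG libraries lay between 0.289 and 0.358 CPM, above those 2 and below shCtrl replicate 3 at 0.410 CPM. The groups thus overlapped (two-sided exact permutation test, p = 0.4, n = 3 per group). This test cannot give a p under 0.1 with so few libraries, so it does not show what this depth could detect.

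In shCtrl, FOSL2 at 8.08 ± 0.264 and FOS at 7.11 ± 0.363 CPM per kb were the most abundant Fos genes, with no overlap between them. FOSB at 0.353 ± 0.198 and FOSL1 at 0.0803 ± 0.139 CPM per kb were far lower, and their libraries overlapped. The summed Fos level went from 15.6 ± 0.548 to 20.5 ± 1.33 CPM per kb, again without overlap. FOSL2 and FOS together made up nearly all of this sum in both groups. FOSL2 held 51.7% ± 0.236 in shCtrl and 50.7% ± 2.63 in shmiR155HG libraries, and FOS held 45.5% ± 0.737 and 44.4% ± 2.74. FOSL2 counts over FOS counts were 3.63 ± 0.0675 and 3.66 ± 0.424 (exact permutation test, p = 1, n = 3 per group). FOSB over FOS was 0.0909 ± 0.0545 and 0.158 ± 0.0156 (exact permutation p = 0.2, adjusted 0.3), with overlap at shCtrl replicate 2. FOSL2 over FOSB was 55.9 ± 42.0 and 23.2 ± 1.74 (exact permutation p = 0.1, adjusted 0.2), with shCtrl replicate 3 far above the others at 104. The shmiR155HG ratio over the shCtrl ratio was 0.414, and it was 0.726 without that library.

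**Figure D2:**
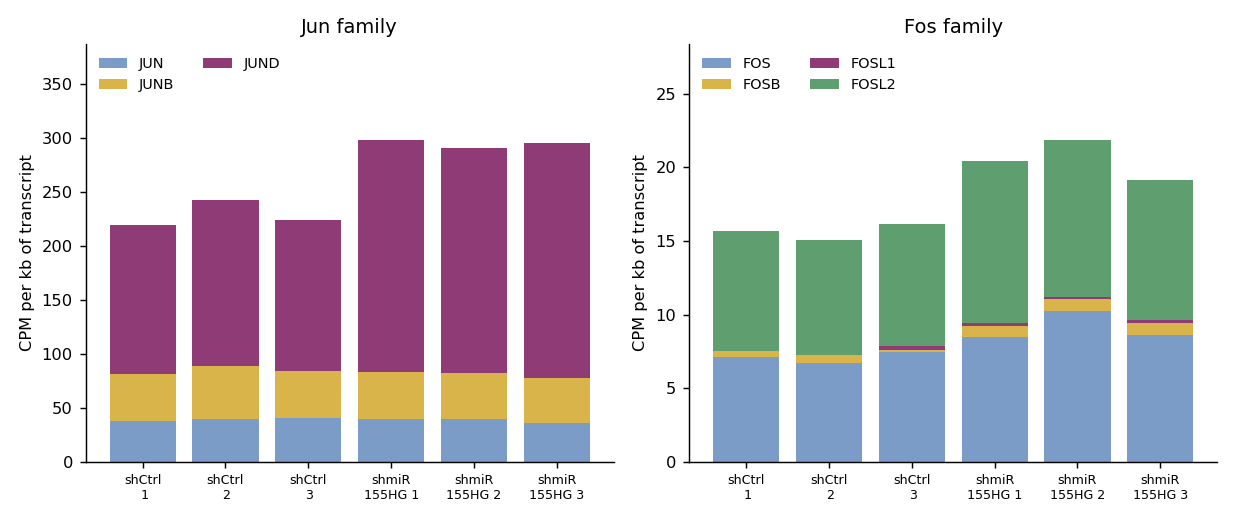
Stacked bars give the level of each Jun gene (left) and each Fos gene (right) in the 6 libraries, as CPM per kb of canonical transcript on linear axes that start at 0 and differ between the panels. JUND widens from 62.5% to 63.6% of the Jun bar in shCtrl to 71.6% to 73.6% in shmiR155HG libraries, whereas FOSL2 and FOS together make up most of the Fos bar in every library, FOSL2 the larger part.

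BATF and ATF3 did not pass the test, and BATF3 was too low to be tested. BATF, the partner of Jun proteins and IRF factors in lymphocytes (chr14:75522455-75546993, plus strand, 3 exons), had 1191, 1112 and 1253 counts in shCtrl and 1081, 1031 and 963 counts in shmiR155HG libraries. In CPM these were 30.6, 30.4 and 32.1 against 28.1, 27.0 and 28.8. All 3 shmiR155HG libraries were lower than all 3 shCtrl libraries, but by a small margin. The log2 fold change of -0.15 had an SE of 0.083 (adjusted p = 0.254), with a 95% interval of the fold from 0.801 to 1.01.

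BATF3, the relative of BATF best known from dendritic cells (chr1:212686417-212699840, minus strand, 3 exons), had 12, 10 and 28 counts in shCtrl and 17, 27 and 35 counts in shmiR155HG libraries. Its 0.274 to 0.717 CPM and 0.442 to 1.05 CPM overlapped (two-sided exact permutation test, p = 0.3, n = 3 per group, with 0.1 the smallest possible). ATF3 (chr1:212565334-212620777, plus strand, 4 exons) had 344, 337 and 323 counts in shCtrl and 321, 430 and 257 counts in shmiR155HG libraries. The highest and the lowest of the 6 libraries, at 11.3 and 7.67 CPM, were both shmiR155HG, replicates 2 and 3. Its log2 fold change of 0.05 had an SE of 0.16 (adjusted p = 0.876; 95% interval of the fold 0.824 to 1.31), and was -0.13 without shmiR155HG replicate 2. Per kb in shCtrl, BATF at 34.0 ± 1.01 stood just below JUN and above the Fos genes, ATF3 at 4.52 ± 0.246 stood below FOS, and BATF3 at 0.518 ± 0.295 CPM per kb overlapped FOSB.

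Position and sequence features were set beside these results as a description. Of the 3 members with a miR-155 site, FOS and FOSL2 rose and ATF3 did not pass the test, and in FOS and FOSL2 the base after the site is an A, whereas in ATF3 it is a T. JUND and FOSB rose without such a site. FOS and BATF are neighbours 240 kb apart on chromosome 14, and ATF3 and BATF3 lie 65.6 kb apart on chromosome 1; within the former pair only FOS passed the test. Of the members that rose, JUND and FOSL2 carried a match to the AP-1-type motifs in their promoter windows, and FOS and FOSB did not. JUN and ATF3 carried a match and did not pass the test.

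To find genes that varied from library to library like JUND, the member with the lowest adjusted p, group means were taken away from log2 CPM and Pearson's correlation was computed over the 6 libraries for the 9720 genes that averaged 5 CPM or more. The closest were KIAA1143 (r = 0.996), FZR1 (r = 0.995) and MT-CO1 (r = 0.994), and 148 genes exceeded 0.9. With 6 libraries from which group means were taken, high values are common, and the labels do not say whether the libraries were prepared together. Between the groups these genes did not move alike, with log2 fold changes of -0.13 for KIAA1143 (adjusted p = 0.0974), 0.23 for FZR1 (adjusted p = 0.0207) and 0.08 for MT-CO1 (adjusted p = 0.0636).

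Upstream of AP-1, 34 genes of MAP kinase signaling, serum response factor and its partners, and ubiquitin ligases that degrade Jun proteins were examined. Of the 33 tested, 5 rose and 1 fell, or 18.2% called against 15.3% of all genes, with a median log2 fold change of 0.03. MAP3K8, a kinase that feeds the ERK pathway, rose from 14.5 ± 1.43 to 19.7 ± 1.06 CPM (log2 fold change 0.45, adjusted p = 0.00736). SRF, which binds serum response elements of immediate early genes, rose from 211 ± 6.52 to 253 ± 4.18 CPM (log2 fold change 0.26, adjusted p = 1.34e-05). MAP2K3, which activates p38, rose from 111 ± 7.13 to 132 ± 2.98 CPM (0.25 on the log2 scale, adjusted p = 0.00058). MAPK3, which encodes ERK1, fell from 30.1 ± 1.68 to 24.8 ± 1.52 CPM (log2 fold change -0.28, adjusted p = 0.0316). The MAPK3 call was lost in 4 of the 6 fits that left out a library, those without shCtrl replicate 1 or 3 or shmiR155HG replicate 1 or 2 (adjusted p from 0.0884 to 0.125), and that of MAP3K8 without shCtrl replicate 2 (adjusted p = 0.0525). SRF and MAP2K3 missed the study's thresholds in the exact test. The other 27 tested genes of the list, among them JNK kinases, did not pass the test.

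Among the other immediate early genes more rose than fell. Of 37 such genes 28 were tested, 15 rose, 2 fell and 11 were not called, and the median log2 fold change was 0.31. Thus 60.7% were called, against 15.3% of all genes tested, in a list chosen with earlier results of these data known. NR4A2, an orphan nuclear receptor, rose from 13.2 ± 1.02 to 46.5 ± 0.942 CPM (log2 fold change 1.82, SE 0.089, adjusted p = 1.32e-14). EGR2, a zinc finger factor induced by antigen receptor and calcium signals, rose from 1.90 ± 0.636 to 6.52 ± 0.293 CPM (log2 fold change 1.78, adjusted p = 7.47e-06). NR4A3 rose from 0.790 ± 0.193 to 2.28 ± 0.703 CPM (log2 fold change 1.52, adjusted p = 0.00763), and it passed the filter only through its shmiR155HG libraries. NFKBIZ and NFKBIA, both targets and modulators of NF-κB, went the other way. NFKBIZ fell from 41.5 ± 0.420 to 31.3 ± 3.28 CPM (log2 fold change -0.41, adjusted p = 0.000753), and NFKBIA from 241 ± 12.4 to 198 ± 7.19 CPM (-0.29 on the log2 scale, adjusted p = 1.47e-05).

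**Figure D3:**
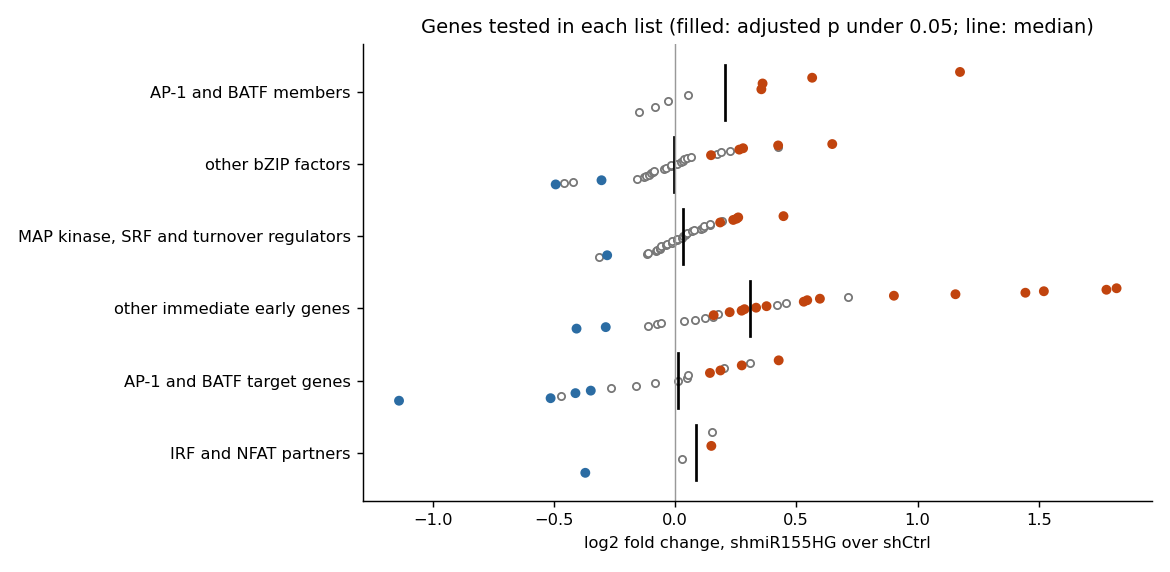
Each point is a tested gene, placed by its log2 fold change (shmiR155HG over shCtrl) in the list it belongs to; filled points have an adjusted p under 0.05 (orange higher, blue lower), and the black line is the list's median. The medians of the members (0.20) and of the other immediate early genes (0.31) lie right of 0, and those of the other lists lie between -0.0037 and 0.09.

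Other bZIP factors, which can pair with or compete against AP-1 proteins, showed no common direction. Of 42 genes 30 were tested, 5 rose and 2 fell (23.3% called, against 15.3% of all genes tested), and the median log2 fold change was -0.0037. MAFF, a small Maf protein without an activating domain, rose from 7.39 ± 1.25 to 11.6 ± 1.60 CPM (log2 fold change 0.65, adjusted p = 0.00573). CREB3L3 rose from 21.3 ± 0.444 to 28.6 ± 1.21 CPM (0.43, adjusted p = 0.00145) and ATF5 from 35.9 ± 1.97 to 43.2 ± 1.64 CPM (0.26, adjusted p = 0.0145), both on the log2 scale. The ATF5 call was lost without shCtrl replicate 2, shmiR155HG replicate 1 or shmiR155HG replicate 2 (adjusted p from 0.0586 to 0.0779), and that of MAFF without shmiR155HG replicate 2 (adjusted p = 0.0614). CREB3L2, a membrane-bound factor of the secretory pathway, fell from 33.8 ± 4.16 to 24.0 ± 0.637 CPM (log2 fold change -0.49, adjusted p = 0.000396). XBP1, a regulator of the unfolded protein response, fell from 271 ± 6.76 to 220 ± 5.06 CPM (-0.30 on the log2 scale, adjusted p = 1.03e-06).

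Genes known as AP-1 or BATF targets in lymphocytes and other cells divided between the directions. Of 35 genes 17 were tested, 4 rose and 4 fell, with a median log2 fold change of 0.01. Thus 47.1% were called, against 15.3% of all genes tested, in a list chosen with earlier results of these data known. PLAU, the urokinase gene with a classical AP-1 enhancer, rose from 50.3 ± 3.45 to 67.6 ± 3.52 CPM (log2 fold change 0.43, adjusted p = 4.19e-05). PRDM1, which encodes BLIMP-1, rose from 40.6 ± 3.29 to 49.1 ± 4.89 CPM (0.28 on the log2 scale, adjusted p = 0.0163), and FASLG, the Fas ligand gene, from 79.2 ± 0.652 to 90.2 ± 1.86 CPM (0.19, adjusted p = 0.0163). The PRDM1 call was lost in 4 of the 6 fits that left out a library, those without replicate 1 or 2 of either group (adjusted p from 0.0533 to 0.151). The FASLG call was lost without shmiR155HG replicate 1 (adjusted p = 0.0638) and with the study's thresholds. The genes of granzyme B, IL-10 and IFN-γ, which are secreted, fell. That of TNF, also secreted, did not pass the test, at 71.7 ± 5.86 and 74.4 ± 4.23 CPM (log2 fold change 0.05, adjusted p = 0.670). GZMB went from 1194 ± 42.4 to 542 ± 29.9 CPM (log2 fold change -1.14, SE 0.036, adjusted p = 7.03e-19), IL10 from 76.4 ± 4.89 to 53.5 ± 3.77 CPM (-0.51, adjusted p = 2.47e-06) and IFNG from 168 ± 7.06 to 127 ± 4.23 CPM (-0.41, adjusted p = 1.40e-07). In the libraries with higher JUND, FOSL2, FOS and FOSB the called targets thus went both ways. GZMB, IL10 and IFNG were among the 4 lower, and PLAU, PRDM1 and FASLG among the 4 higher.

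Of the 5 IRF and NFAT genes whose proteins share DNA sites with BATF or AP-1, 4 were tested, 1 rose and 1 fell, with a median log2 fold change of 0.09. NFATC2 rose from 148 ± 7.31 to 164 ± 4.69 CPM (log2 fold change 0.15, adjusted p = 0.0203). This call was lost with the study's thresholds and without shCtrl replicate 1 (adjusted p = 0.133), shmiR155HG replicate 1 (0.0954) or shmiR155HG replicate 2 (0.0987). IRF8 fell from 162 ± 0.634 to 126 ± 6.04 CPM (log2 fold change -0.37, adjusted p = 7.11e-07). IRF4, the other partner of BATF, did not pass the test.

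The 4 called members were also tested under 15 other settings of the tool, the filter, the scaling and the libraries used. JUND and FOSL2 passed the threshold under each of them, with log2 fold changes of 0.54 to 0.62 and 0.32 to 0.42. FOS and FOSB kept their direction under each but passed under 10 of the 15, and the settings that ended their call were those that left out a library and, for FOS, the fit with the replicate number as a block (log2 fold change 0.35, adjusted p = 0.0526).

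**Figure D4:**
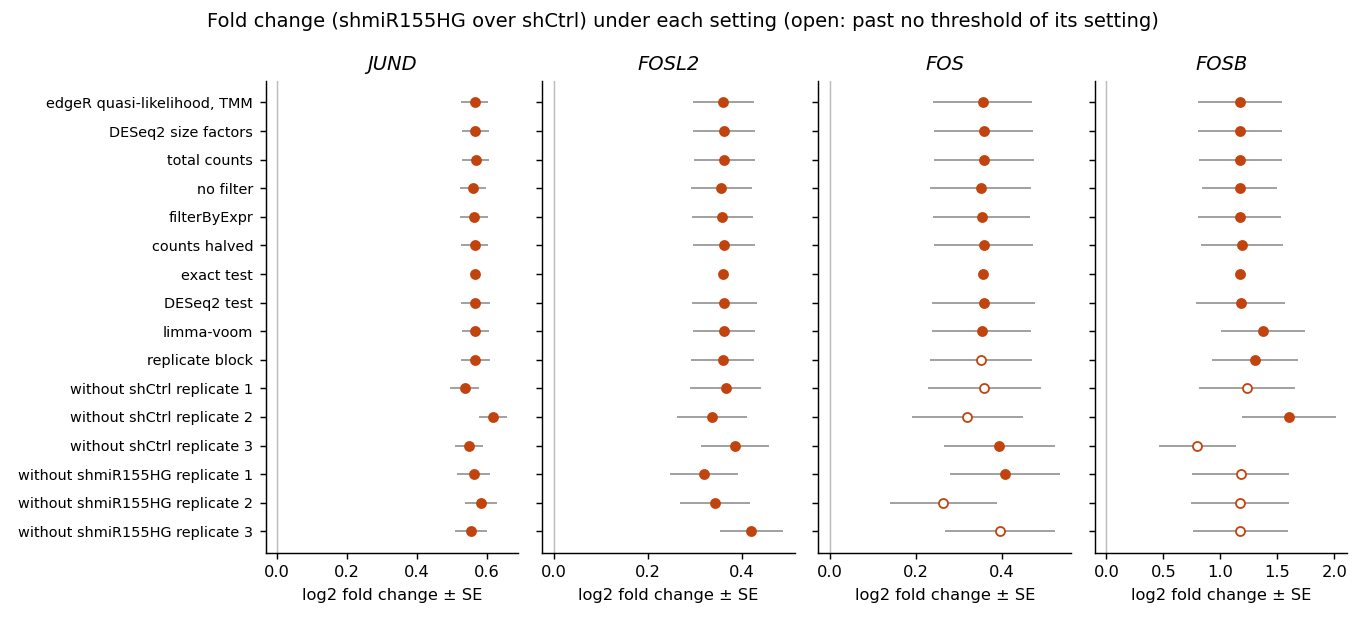
Log2 fold change (shmiR155HG over shCtrl) of the 4 called members under the reported test and 15 other settings, with bars of ± SE (none for the exact test, which gives no SE) and open points where the setting's own threshold was missed. JUND and FOSL2 are filled throughout, whereas FOS and FOSB have 5 open points each, and every point lies right of 0.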

How the data were processed

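RNA-seq of 6 NK92 libraries (3 shCtrl, 3 shmiR155HG) was used. Reads had been mapped by the authors with HISAT2 (hg38) and quantified on known transcripts with StringTie and prepDE.py3. The deposited values are whole-number counts per gene, without normalization. StringTie's counts are derived from coverage, and the annotation release, strand setting and assumed read length are not given in the sources used here. Of counts between 1 and 59, 53.4% were even, so a count may not equal 1 read, and intervals and floors cover counting error only. Every library was used, with groups taken from the titles.

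Following the study, a gene needed over 1 CPM in 2 or more libraries. Scaling was by TMM. The test was edgeR's quasi-likelihood test (edgeR 4.0.16, R 4.3.3, robust) over 12263 genes, with Benjamini-Hochberg adjustment and a threshold of 0.05. The common biological coefficient of variation was 8.71%. CPM values are normalized, SE is that of the log2 fold change, and ± marks the SD. The scripts were tested on simulated data. Members and lists (other bZIP factors, MAP kinase and turnover regulators, immediate early genes, AP-1 and BATF targets, IRF and NFAT partners, and NK, T, B and myeloid cell markers) were chosen with earlier results of these data known. Named genes were all members, MIR155HG, up to 3 called genes per direction and list with separate groups and a mean of at least 1 CPM, and the 3 genes most like JUND. Positions and lengths are from GENCODE release 44 (hg38), and promoters and the miRNA from RefSeq.

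Alternatives were DESeq2 size factors, total counts, no filter, filterByExpr, halved counts, the study's exact test (P under 0.01, fold over 1.2), DESeq2 1.42.0, limma-voom (limma 3.58.1), a replicate block and each library left out. Leaving out libraries for ratios and for the untested members was added after seeing the data.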

Additional observations from a re-analysis of the deposited data

How the results depend on the processing

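Of 465 log2 fold changes of 31 named genes under the alternatives, 432 kept their direction and side of the threshold, 31 lost the call and 2 changed sign, neither of them called: JUN ranged from -0.0595 to 0.0261 with a library left out (above 0 without shmiR155HG replicate 3), and ATF3 from -0.13 to 0.16 (below 0 without shmiR155HG replicate 2). With the exact test and the study's thresholds 1017 genes were called (551 higher, 466 lower) in place of 1874, with 2 regulators of the MAP kinase list and 1 IRF or NFAT partner. These are not the counts of higher and lower genes that the paper reports. Leaving out a library gave 2 to 3 called members (2 without shCtrl replicate 1, shmiR155HG replicate 2 or shmiR155HG replicate 3) and 1 to 2 called IRF or NFAT partners (1 without shCtrl replicate 1 or shmiR155HG replicate 1). Ratios between members kept their direction, except that shmiR155HG over shCtrl ranged from 0.933 to 1.001 for JUNB over JUN (above 1 without shCtrl replicate 2), and from 0.943 to 1.06 for FOSL2 over FOS (below 1 without shCtrl replicate 3 or shmiR155HG replicate 1). With the replicate number as a block 3 members were called, FOS losing its call, and 829 genes rose and 909 fell. The other members' calls did not change. Same-numbered libraries showed no shared deviation (correlations 0.0107, -0.0138 and -0.0412), which cannot show whether they were cultured or prepared together. The cause of these shifts was not tested. No scaling moved the median of all genes by 0.1 on the log2 scale. Depth limits FOSL1 and BATF3, which had at most 35 counts: without the filter their log2 fold changes were 1.23 (SE 1.199) and 0.74 (SE 0.65), with adjusted p of 0.603 and 0.579.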

Other observations

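After the group means were taken away, JUNB and JUND varied together over the 6 libraries (Pearson's r = 0.92 of log2 CPM), as did JUN and FOSL2 (r = 0.83), while BATF and ATF3 varied in opposite directions (r = -0.86). These were chosen after their values were seen among the pairs of the 8 tested members, and are given as a description of 6 libraries.

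Further immediate early genes, also chosen after their values were seen, rose with FOS and FOSB. EGR1, a zinc finger factor driven by serum response factor, rose from 10.3 to 19.3 CPM, the antiproliferative gene BTG2 from 15.4 to 34.3 CPM, KLF2 from 1.76 to 4.78 CPM and MYC from 383 to 483 CPM (means, n = 3 per group). IER2, at 197 and 202 CPM, and NR4A1, at 5.13 and 5.60 CPM, did not pass the test.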
